A study of Mus musculus with 8 samples.

Results

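The cyclin-dependent kinase inhibitors are 7 mouse genes, Cdkn1a, Cdkn1b, Cdkn1c, Cdkn2a, Cdkn2b, Cdkn2c and Cdkn2d. They were taken by gene symbol from arrays that measured RNA of isolated kidney glomeruli. All 7 listed genes were found among 22180 genes with a probe set of 1 symbol, and each had 1 such probe set, so no choice between probe sets was needed. They are compared here over 8 arrays in 3 groups, and their values did not enter their selection.

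All mice were 13 weeks old and had received doxycycline for 3 weeks from 8 weeks of age, controls included. The control group (2 arrays) has the genotype label control, with no further alleles named, and the labels do not say whether vehicle was given. The Tln1 vehicle group (3 arrays) came from mice labelled Tln1 Pod-rtTA TetO-Cre that were given vehicle for 2 weeks after doxycycline, and the Tln1 VPA group (3 arrays) from such mice given valproic acid. By its name the line makes Cre recombinase in podocytes under doxycycline and bears on Tln1, the gene of the integrin-binding protein talin 1. Valproic acid inhibits histone deacetylases. Whether an array stands for 1 animal or a pool is not stated, so each p-value speaks of the variation among these arrays alone, part of which may be technical.

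Cyclin-dependent kinases drive the cell cycle when bound to a cyclin, and these inhibitors hold them in check. The Cip/Kip proteins p21 (Cdkn1a), p27 (Cdkn1b) and p57 (Cdkn1c) bind cyclin-kinase complexes, chiefly those of Cdk2. The INK4 proteins p16 (Cdkn2a), p15 (Cdkn2b), p18 (Cdkn2c) and p19 (Cdkn2d) bind Cdk4 and Cdk6 and keep D cyclins off them, which leaves the retinoblastoma protein active and E2F factors silent. Mature podocytes rarely divide and are known to carry p27 and p57, and Cdkn1a is a usual target of deacetylase inhibitors in cultured cells.

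The 8 arrays fell into 2 sets that cut across the groups. The first set held 5 arrays (Tln1 VPA 1 and 2, Tln1 vehicle 1 and 2, control 1) and the second held 3 (control 2, Tln1 vehicle 3, Tln1 VPA 3). Correlation across genes was 0.990 to 0.995 within a set and 0.966 to 0.979 across sets. Over all genes the median difference of the second from the first set was -0.14. Between arrays of the first set, 1989 to 2600 probe sets had identical deposited values, between those of the second set 3759 to 4340, and across the sets at most 2. Which arrays were normalised together is not given in the sources used here, so every level set across the sets is open to a difference in processing, and the differences of the inhibitors are also given within the sets. The mean of 11 measured podocyte markers lay between 6.87 and 7.53 in the first set and between 7.98 and 8.63 in the second, and that of 9 proximal tubule markers between 11.92 and 12.33 and between 10.89 and 11.29. The labelled glomerular isolate thus held podocyte transcripts on every array, beside tubular ones. The mean of 3 Y-linked genes was 3.57 in control 1, 4.85 and 5.83 in Tln1 VPA 1 and 2, 5.77 in Tln1 vehicle 1, higher still in Tln1 vehicle 2, and 2.56 to 2.72 in the second set. Control 1, the only control of the first set, was thus its lowest array in this mean. Every difference from control within the first set is therefore also a difference in Y-linked signal. Tln1 itself stood at 8.97 and 8.64 in control, 8.95, 8.95 and 8.60 in Tln1 vehicle and 8.76, 8.88 and 8.59 in Tln1 VPA arrays. These values overlapped between the groups, and since the place of its probe set in the gene is not known here, they check no label.

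The first comparison, Tln1 vehicle against control, asks which glomerular transcripts differ once podocytes have been altered. Cdkn1a, which encodes p21, had the largest difference of the 7 genes, with lower values on all 3 Tln1 vehicle arrays than on both control arrays (log2 difference -0.83, SE 0.37, limma adjusted p = 1.00). Cdkn2c, which encodes p18, was lower by less, but with little spread once the array sets were separated. The other 5 genes differed by no more than 0.25 on the log2 scale, 3 of them upward. None of the 7 passed the test (adjusted p below 0.05), with or without the array set as a block, as did 0.00% of all genes in both fits.

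At an unadjusted p below 0.05, no inhibitor and 322 of all genes (1.45%) stood out in limma without the block. With the block there were 2 inhibitors, Cdkn1a and Cdkn2c, beside 7.30% of all genes. For 1 of 7 inhibitors, Cdkn1a, every Tln1 vehicle value lay below every control value, against 3.59% of all genes. No inhibitor was apart in the higher direction, against 4.78%. Within both array sets at once, Cdkn1a and Cdkn2c were lower (2 of 7, against 16.3% of all genes) and none was higher (against 14.2%). The median difference was -0.00 over the 7 genes and 0.02 over all genes.

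The second comparison, Tln1 VPA against Tln1 vehicle, asks what 2 weeks of valproic acid changed. Cdkn1a again had the largest difference, now upward (0.64, SE 0.33, limma adjusted p = 1.00), followed by Cdkn2c (0.26, SE 0.30, adjusted p = 1.00). In all, 5 inhibitors had higher means and 2 lower, Cdkn1c and Cdkn2a. None passed the test in either fit, nor did any other gene (0.00%).

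No inhibitor and 280 of all genes (1.26%) had an unadjusted p below 0.05 without the block, and Cdkn1a and Cdkn2c did with it, beside 5.43% of all genes. No inhibitor had groups that were apart over all arrays, against 1.98% of genes in the higher and 1.57% in the lower direction. Within both sets at once Cdkn1a and Cdkn2c were higher (2 of 7, against 8.31% of all genes) and none was lower (against 6.70%). The median difference was 0.07 over the 7 genes and 0.00 over all genes. The Tln1 vehicle arrays enter both comparisons, so a low value on them lowers the first difference and raises the second, and the 2 differences of a gene are not separate evidence.

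The third comparison, Tln1 VPA against control, sets the treated mice beside controls and shares its arrays with the other comparisons. Cdkn2b, which encodes p15, had the largest difference (0.31, SE 0.20, limma adjusted p = 1.00), and Cdkn1a differed by -0.18 (SE 0.37, adjusted p = 1.00). Means were higher for 4 inhibitors and lower for 3. None passed the test in either fit, as for all genes (0.00%), and none had an unadjusted p below 0.05, against 1.87% of all genes (414) without the block and 8.12% with it. No inhibitor was apart over all arrays, against 5.57% of genes higher and 3.98% lower. Within both sets Cdkn2b was higher (1 of 7, against 15.4%) and Cdkn2c lower (1 of 7, against 16.1%), the latter by only 0.06 and 0.04.

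**Figure D1:**
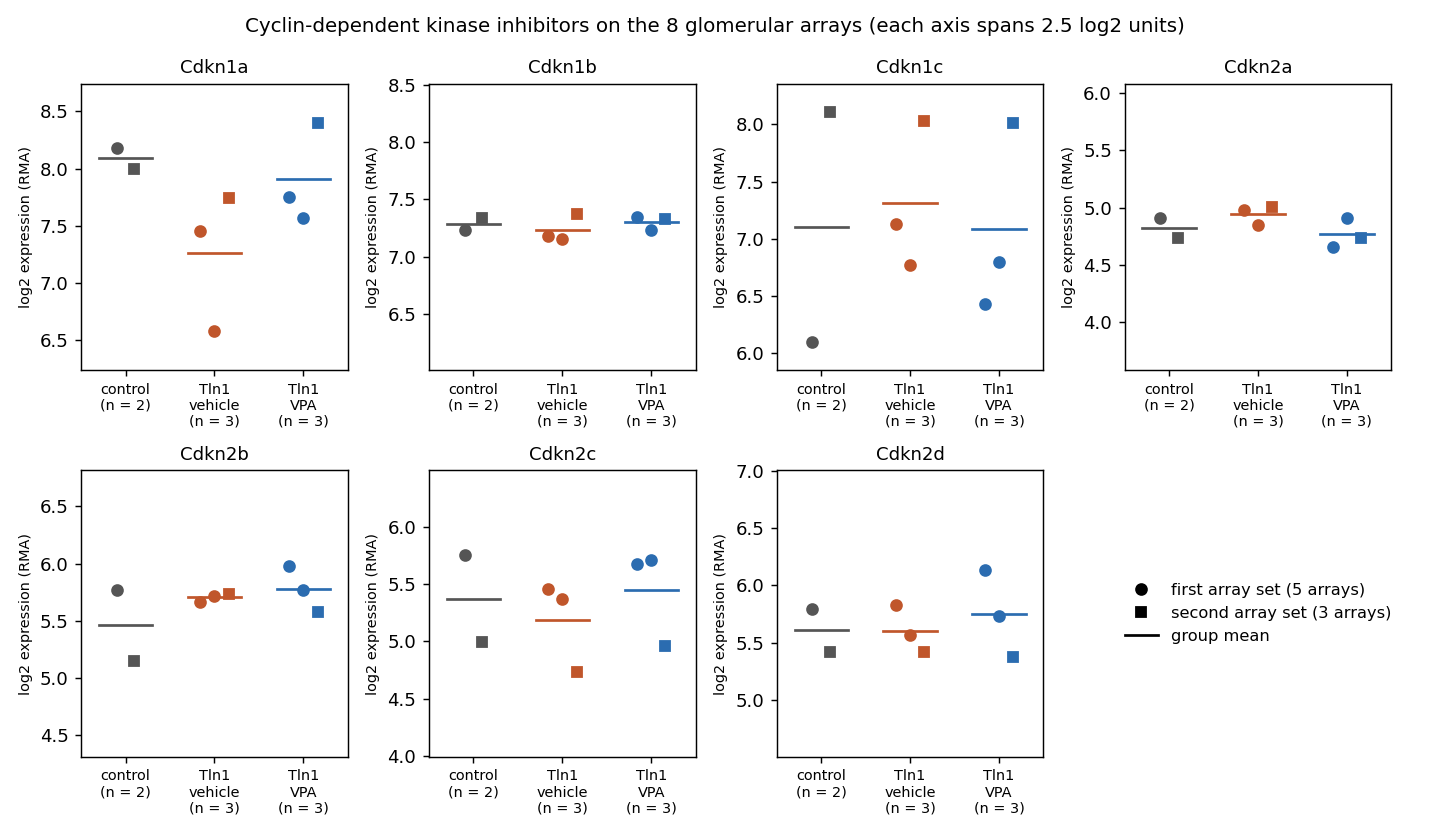
Log2 expression (y axis, RMA values, each panel spanning 2.5 units) of the 7 inhibitors on 2 control, 3 Tln1 vehicle and 3 Tln1 VPA arrays. Circles mark the first array set, squares the second, and bars the group means. Cdkn1a is lowest on Tln1 vehicle 2 at 6.59, while Cdkn1c parts by array set, from 6.10 to 7.13 in the first and 8.02 to 8.11 in the second.

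Among the Cip/Kip genes, Cdkn1a encodes p21, which p53 and many stress signals induce and which halts cells before DNA replication. Its values were 8.18 and 8.00 on the control arrays, 7.46, 6.59 and 7.74 on the Tln1 vehicle arrays, and 7.75, 7.57 and 8.40 on the Tln1 VPA arrays. All Tln1 vehicle values lay below both controls, whereas the Tln1 VPA values ranged from above the controls to below Tln1 vehicle 3. The group means were 8.09 ± 0.13 (SD, n = 2) in control, 7.26 ± 0.60 (n = 3) in Tln1 vehicle and 7.90 ± 0.44 (n = 3) in Tln1 VPA.

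The Cdkn1a mean in Tln1 vehicle was 1.77-fold below control (95% interval of the log2 difference -1.68 to 0.02). The difference was -1.16 within the first set against -0.25 within the second, and with the set as a block it was -0.75 (SE 0.30, limma adjusted p = 0.666). Tln1 vehicle 2 decided much of its size: without that array the difference was -0.49. Against Tln1 vehicle the Tln1 VPA mean was 1.56-fold higher (95% interval of the log2 difference -0.12 to 1.40), by 0.64 within the first set against 0.65 within the second. With the block that difference was also 0.64 (SE 0.27, limma adjusted p = 0.889), while in the fit without it the difference was 0.30 without Tln1 vehicle 2 and 0.40 without Tln1 VPA 3. Tln1 VPA and control differed by -0.52 within the first set against 0.40 within the second, so the order of these groups turned between the sets. The mean of the Y-linked genes ran nearly opposite to Cdkn1a in the first set. It rose from 3.57 on control 1 to 5.83 on Tln1 VPA 2 and was highest on Tln1 vehicle 2. Cdkn1a fell from 8.18 to 7.57 and 6.59 on these arrays, with only Tln1 vehicle 1 and Tln1 VPA 2 out of order. With that mean as a covariate, Cdkn1a in Tln1 VPA against control turned from -0.18 to 0.11. Leaving single arrays out aside, 12 alternatives, this covariate included, gave -1.16 to -0.35 in Tln1 vehicle against control. They gave 0.40 to 0.64 in Tln1 VPA against Tln1 vehicle. The cause of the opposite run was not tested.

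In cultured human cells, deacetylase inhibitors are known to act on CDKN1A through GC boxes near its start, which the transcription factor Sp1 binds, so upstream sequences are shown of Cdkn1a and Cdkn2c, the genes that were apart within both sets in the first 2 comparisons. In the RefSeq promoter table (GRCm38.p6), 6 of the 7 genes matched, with 9 windows. The 250 bases before each start were searched on both strands for the GC box GGGCGG (reverse complement CCGCCC), with overlapping matches counted. The window of the upstream Cdkn1a start held none. That of the downstream start, chr17:29093519-29093768 on the plus strand, held 2, beginning 104 and 46 bases before the start. That of the upstream Cdkn2c start, chr4:109666757-109667006 on the minus strand, held 3, beginning 95, 51 and 40 bases before it. Both are written from 5′ to 3′ with the GC boxes in capitals.
Cdkn1a: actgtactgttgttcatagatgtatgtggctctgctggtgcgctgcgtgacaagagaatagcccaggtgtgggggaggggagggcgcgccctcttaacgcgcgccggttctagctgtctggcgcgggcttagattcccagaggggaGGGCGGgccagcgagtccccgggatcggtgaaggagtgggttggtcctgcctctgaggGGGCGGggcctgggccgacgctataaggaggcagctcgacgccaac
Cdkn2c: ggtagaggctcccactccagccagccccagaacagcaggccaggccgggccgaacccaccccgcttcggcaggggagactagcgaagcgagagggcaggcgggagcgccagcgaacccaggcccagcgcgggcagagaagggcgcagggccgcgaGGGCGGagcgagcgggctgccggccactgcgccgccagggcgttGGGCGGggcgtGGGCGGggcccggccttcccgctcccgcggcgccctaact

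Of 32851 windows of this length, 32.7% held at least 1 GC box, 16.7% at least 2 and 8.47% at least 3. Among the inhibitors, 5 of 9 windows held 1 or more, including those of Cdkn1b, Cdkn2a and Cdkn2d, whose values were not apart within both sets in any comparison. The window of Cdkn2b, which was apart within both sets in the third comparison, held none, nor did the downstream windows of Cdkn2a and Cdkn2c. A match describes the letters only. The arrays do not tell the transcripts of the 2 Cdkn1a starts apart, nor those of the 2 Cdkn2c starts.

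**Figure D2:**
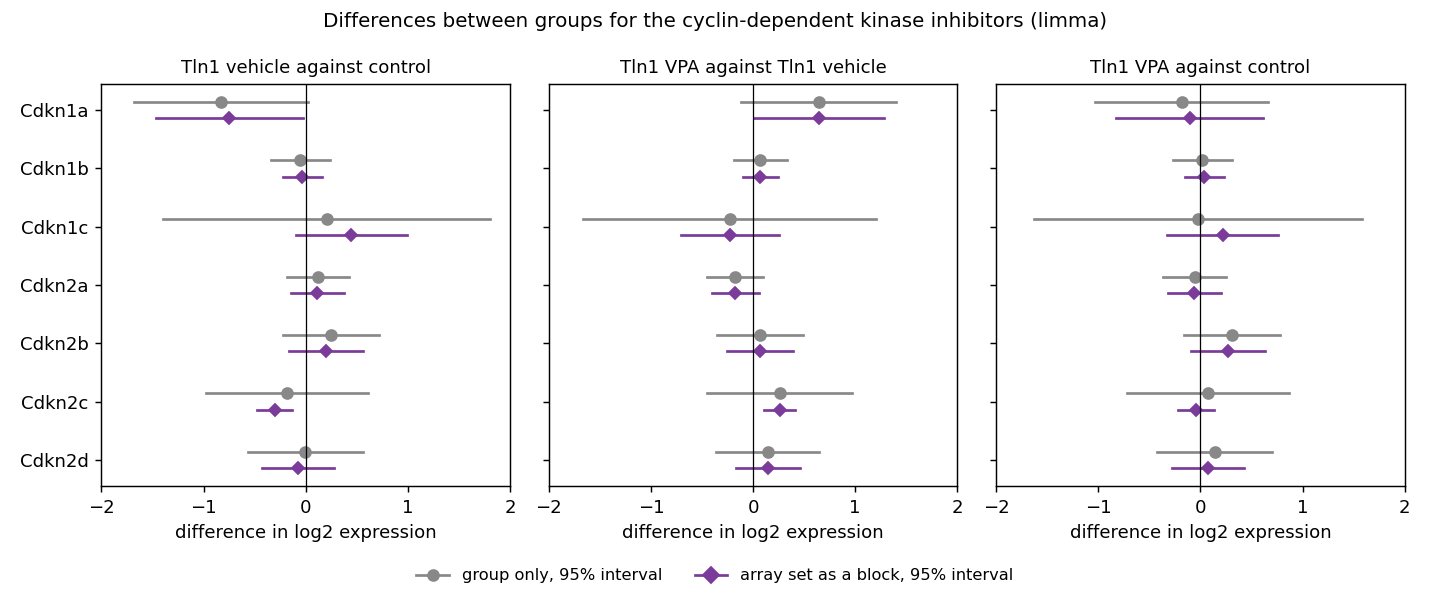
Differences between groups in log2 expression (x axis) for the 7 inhibitors (y axis) in the 3 comparisons, with 95% intervals from limma. Circles come from the fit with group only and diamonds from the fit with the array set as a block, where the intervals of Cdkn1a and Cdkn2c leave 0 in the first 2 comparisons although no adjusted p passed.

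Cdkn1b encodes p27, which keeps resting cells out of the cycle and is controlled largely by its breakdown. Its values were 7.23 and 7.34 in control, 7.18, 7.15 and 7.37 in Tln1 vehicle, and 7.35, 7.23 and 7.33 in Tln1 VPA arrays. It was the steadiest of the 7, with a range of 0.22 over all arrays, and the groups overlapped. The differences were -0.05 (95% interval -0.34 to 0.23) for Tln1 vehicle against control, 0.07 (-0.18 to 0.33) for Tln1 VPA against Tln1 vehicle and 0.02 (-0.27 to 0.31) for Tln1 VPA against control. In the first and second set they were -0.07 and 0.04, 0.13 and -0.04, and 0.06 and -0.01. RNA differences of more than 0.34 either way therefore lie outside all 3 intervals, which says nothing about the protein.

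Cdkn1c encodes p57, an imprinted inhibitor that marks podocytes of the mature glomerulus. Its values were 6.10 and 8.11 in control, 7.13, 6.77 and 8.03 in Tln1 vehicle, and 6.43, 6.80 and 8.02 in Tln1 VPA arrays. The high values were those of the second array set in each group, and the groups overlapped. Between the sets the means differed by 1.41, more than for any other inhibitor. Of the 11 podocyte markers, 10 also had higher means in the second set, with differences between -0.38 and 2.27, and all 9 proximal tubule markers had lower ones. In such bulk isolates fewer podocytes and less RNA per podocyte cannot be told apart.

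The spread between sets left the Cdkn1c comparisons wide. Tln1 vehicle differed from control by 0.20 (95% interval -1.40 to 1.81), and by 0.45 (SE 0.23, limma adjusted p = 0.738) with the set as a block, with 0.85 within the first set against -0.08 within the second. The sign of the difference rested on single arrays, at -0.80 without control 1 and 1.21 without control 2. Tln1 VPA differed from Tln1 vehicle by -0.23 (95% interval -1.66 to 1.21, adjusted p = 0.912 with the block), with -0.33 within the first set against -0.01 within the second. Without Tln1 VPA 3 it was -0.69, and without Tln1 vehicle 3 it was 0.13. Tln1 VPA differed from control by -0.02 (95% interval -1.62 to 1.58), and by 0.22 with the block, with 0.52 within the first set against -0.10 within the second.

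To set Cdkn1c beside the podocyte content of each isolate, the mean of the 11 podocyte markers was subtracted array by array. The size of this value has no meaning across probe sets, but its differences between arrays can be read. It was -0.80 and -0.52 in control, -0.40, -0.44 and -0.30 in Tln1 vehicle, and -0.43, -0.50 and 0.03 in Tln1 VPA arrays. A group difference in this value can come from Cdkn1c or from the markers subtracted. Of the 11 markers, 8 had lower means in Tln1 vehicle than in control (median -0.10, with 0.37 and -0.30 in the sets). In Tln1 VPA against control 10 were lower (median -0.39, with 0.10 and -0.69 in the sets), while Cdkn1c itself differed by -0.02. Against Tln1 vehicle 10 were also lower in Tln1 VPA (median -0.32). In Cdkn1c minus the marker mean, every Tln1 array lay above both controls. The difference was 0.28 for Tln1 vehicle against control, 0.38 within the first set against 0.22 within the second (exact permutation test over arrays, two-sided, p = 0.10, the smallest this design allows). For Tln1 VPA against control it was 0.36, 0.34 within the first set against 0.55 within the second (exact p = 0.20, two-sided), and for Tln1 VPA against Tln1 vehicle 0.08, -0.04 within the first set against 0.33 within the second (exact p = 0.90, two-sided). Adjusted over the 3 tests by Benjamini-Hochberg, the exact p-values became 0.30, 0.30 and 0.90 in that order. No such test with 2 or 3 arrays a group can pass 0.05. Without control 1 the difference of Tln1 vehicle from control was 0.14, and that of Tln1 VPA was 0.22. Without Tln1 VPA 3 the latter was 0.20, and the difference of Tln1 VPA from Tln1 vehicle was -0.09.

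**Figure D3:**
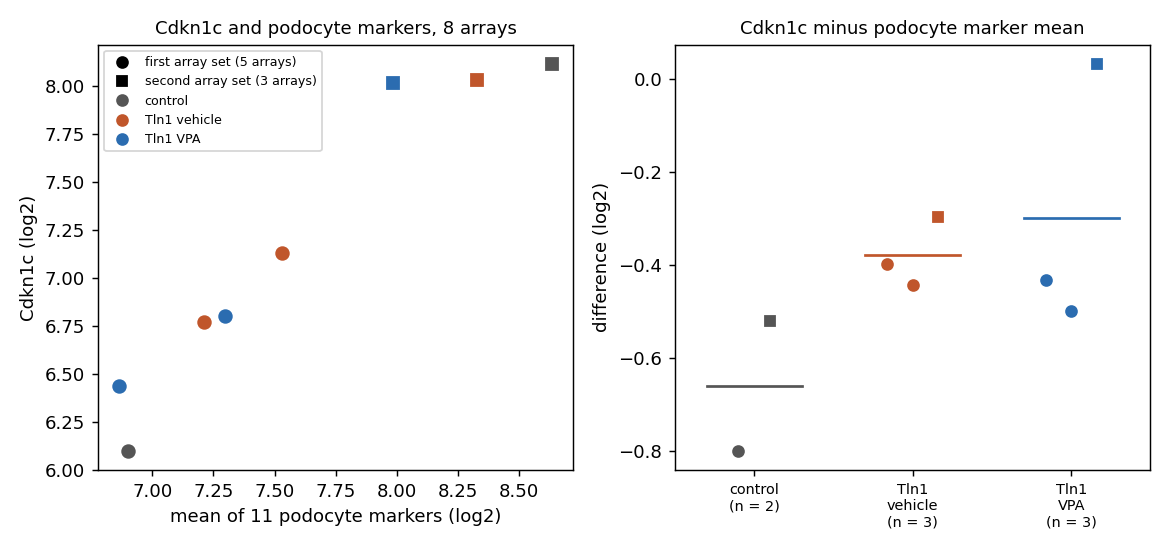
Left, Cdkn1c (y axis, log2) against the mean of 11 podocyte markers (x axis, log2) on the 8 arrays, coloured by group with the array set as the symbol. Right, Cdkn1c minus that mean by group, with bars for group means; all 6 Tln1 arrays lie above both controls, at -0.80 and -0.52.

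Of the INK4 genes, Cdkn2c had the clearest pattern within the sets. It encodes p18, which restrains Cdk4 and Cdk6. Its values were 5.75 and 4.99 in control, 5.46, 5.37 and 4.73 in Tln1 vehicle, and 5.68, 5.71 and 4.96 in Tln1 VPA arrays. Over all arrays the groups overlapped, because the second set lay 0.70 below the first. Within each set the Tln1 vehicle arrays were the lowest, and control and Tln1 VPA lay close together. Each set held a single control array, and the second set a single array of each group, so its differences rest on single arrays.

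For Cdkn2c the residual SD between arrays was 0.439 with group only and 0.0404 with the set as a block, against medians over all genes of 0.214 and 0.123. Tln1 vehicle against control differed by -0.18 (95% interval -0.98 to 0.61), and by -0.30 (-0.48 to -0.13, SE 0.07, limma adjusted p = 0.463) with the block, with -0.34 and -0.26 in the sets. Tln1 VPA against Tln1 vehicle differed by 0.26 (-0.45 to 0.97), with a block interval of 0.11 to 0.41 (SE 0.06, limma adjusted p = 0.816) and with 0.28 and 0.22 in the sets. Tln1 VPA against control differed by 0.08, and by -0.04 (95% interval -0.22 to 0.13) with the block. Without the block, leaving out control 1 turned the first difference to 0.19 and leaving out control 2 made it -0.56, and leaving out Tln1 vehicle 3 brought it to 0.04. The difference between Tln1 VPA and Tln1 vehicle was 0.04 without Tln1 vehicle 3 and 0.51 without Tln1 VPA 3. Each such step unbalances the sets.

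**Figure D4:**
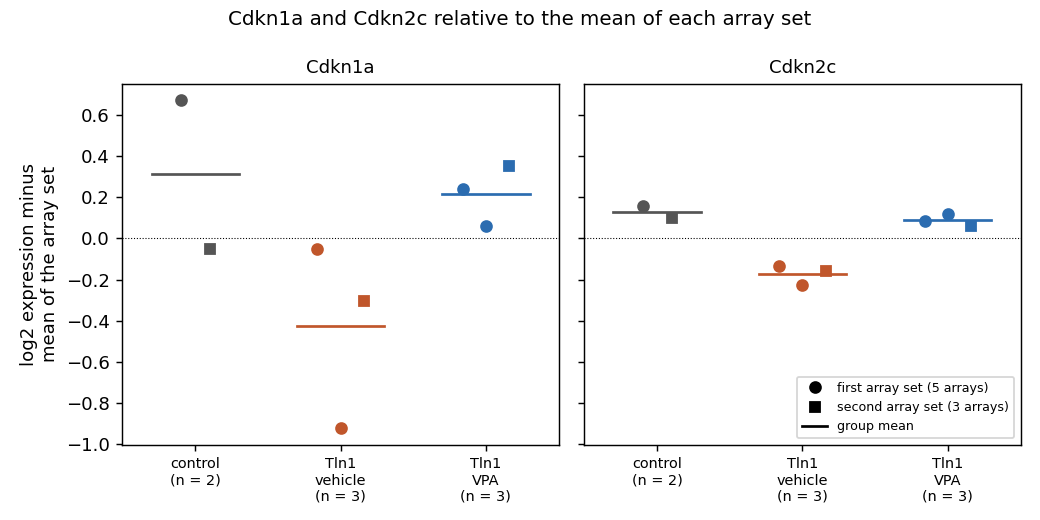
Cdkn1a and Cdkn2c after subtraction of each array set's mean (y axis, log2 units) in the 3 groups, with circles for the first set, squares for the second and bars for group means. Cdkn2c lies between -0.22 and -0.14 on the Tln1 vehicle arrays and between 0.06 and 0.16 on the others, while Cdkn1a is more spread, from -0.92 to -0.05 on the Tln1 vehicle arrays.

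Cdkn2b, the neighbour of Cdkn2a on chromosome 4, encodes p15, an inhibitor induced by TGF-beta. Its values were 5.77 and 5.15 in control, 5.67, 5.71 and 5.74 in Tln1 vehicle, and 5.98, 5.77 and 5.57 in Tln1 VPA arrays. Control 2 was the lowest array and Tln1 VPA 1 the highest, and the groups overlapped. The differences were 0.25 (95% interval -0.23 to 0.72) for Tln1 vehicle against control, with -0.08 within the first set against 0.59 within the second, and 0.07 (-0.35 to 0.49) for Tln1 VPA against Tln1 vehicle, with 0.18 and -0.16 in the sets. Tln1 VPA against control, at 0.31 (-0.16 to 0.78), with 0.10 and 0.42 in the sets, was at 0.00 without control 2 and at 0.62 without control 1.

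Cdkn2d encodes the INK4 protein p19. Its values were 5.79 and 5.42 in control, 5.83, 5.56 and 5.42 in Tln1 vehicle, and 6.13, 5.73 and 5.37 in Tln1 VPA arrays, so the lowest value in each group was that of the second set and the groups overlapped. The differences were -0.00 (95% interval -0.57 to 0.56), 0.14 (-0.36 to 0.65) and 0.14 (-0.42 to 0.71) in the 3 comparisons. Within the sets they were -0.10 and 0.00, 0.24 and -0.04, and 0.14 and -0.04.

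Cdkn2a, which encodes p16 and, in another reading frame, p19Arf, a stabiliser of p53, is best known for its rise in senescent cells. Its 1 probe set gives 1 value. The place of that probe set in the gene is not known here, so neither is which of the products the value covers. The values were 4.91 and 4.74 in control, 4.98, 4.85 and 5.01 in Tln1 vehicle, and 4.66, 4.91 and 4.74 in Tln1 VPA arrays, all within 0.34 of each other. Their mean of 4.85 lay below the median gene mean of 4.92, and the values carry no detection calls, so whether the transcript was measured above background is not known. The differences were 0.12 (95% interval -0.19 to 0.43), -0.17 (-0.45 to 0.10) and -0.05 (-0.36 to 0.25). Within the sets they were 0.00 and 0.27, -0.13 and -0.27, and -0.13 and 0.00.

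The likeness of each gene to others was measured as Pearson's r over the 8 arrays after the mean of the array set had been subtracted, among genes above the median gene mean. With so few arrays and so many genes, high values of r arise readily, and they are given as a description. Among themselves, Cdkn1b and Cdkn2d were the most alike (r = 0.886), followed by Cdkn1a and Cdkn2c (r = 0.835), whereas Cdkn1a and Cdkn1c ran opposite (r = -0.560). The 3 genes most like Cdkn1a were Chmp4b, Praf2 and Itga1 (r = 0.985, 0.977 and 0.973). For Cdkn1b they were Exph5, Il17re and Lancl2 (r = 0.972, 0.970 and 0.968), and for Cdkn1c Pign, Mtmr1 and Phip (r = 0.974, 0.972 and 0.967). For the INK4 genes they were Rtp3, Gnao1 and Gm5258 (Cdkn2a), Nfix, Gca and Cyp2s1 (Cdkn2b), Arf5, Lsm2 and Mir1943 (Cdkn2c) and Fam220a, Zbtb14 and Rgs9 (Cdkn2d), with r from 0.970 (Gm5258) to 0.989 (Nfix and Fam220a).

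The partners and targets of the inhibitors were described from lists of such genes, of which no gene passed the test in any comparison in either direction. Genes named from a list had its smallest p-values in a comparison, a choice that favours genes whose groups lie apart. Among the D cyclins and their kinases, the targets of INK4 proteins, all 5 listed genes were measured. In Tln1 vehicle against control 2 were higher and 3 lower (median -0.04), in Tln1 VPA against Tln1 vehicle 4 and 1 (median 0.10), and in Tln1 VPA against control 3 and 2 (median 0.05). The median against control turned with the arrays: for Tln1 vehicle it was -0.21 and 0.35 in the sets, -0.14 without control 2 and 0.22 without control 1, and 0.21 with the Y-linked mean as a covariate. For Tln1 VPA it was -0.12 and 0.16 in the sets, -0.12 without control 2 and 0.32 without control 1. Cdk6 stood at 7.25 and 7.04 in control, 7.77, 7.60 and 7.39 in Tln1 vehicle, and 7.99, 7.99 and 7.49 in Tln1 VPA arrays. All Tln1 arrays were above both controls, by 0.44 (SE 0.20) with vehicle and 0.68 (SE 0.20) with valproic acid (limma adjusted p = 1.00 for both). Over all genes, 4.78% were apart from control and higher with vehicle, and 5.57% with valproic acid. Cdk4 was at 8.44 and 8.24 in control, 8.16, 8.19 and 8.24 in Tln1 vehicle, and 8.34, 8.30 and 8.37 in Tln1 VPA arrays. Its Tln1 vehicle arrays were thus the lowest, by -0.15 (SE 0.12) against control and with Tln1 VPA 0.14 (SE 0.10) above them. Of all genes, 3.59% were apart and lower in Tln1 vehicle than in control, and 1.98% apart and higher in Tln1 VPA than in Tln1 vehicle.

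The E, A and B cyclins and their kinases, which Cip/Kip proteins restrain, had 5 of 7 listed genes measured. In Tln1 VPA against Tln1 vehicle all 5 were higher (median 0.55, against 0.00 over all genes, with 0.83 within the first set against 0.03 within the second), in Tln1 VPA against control 5 (median 0.77) and in Tln1 vehicle against control 4 (median 0.20). Cyclin A2, Ccna2, which acts in S phase and early mitosis, was at 4.87 and 4.36 in control, 5.01, 4.87 and 4.56 in Tln1 vehicle, and 5.83, 5.91 and 5.20 in Tln1 VPA arrays. Every Tln1 VPA array was above the others, by 0.83 (SE 0.24) against Tln1 vehicle. The shares of all genes apart and higher in Tln1 VPA were 1.98% against Tln1 vehicle and 5.57% against control. Cyclin B2, Ccnb2, which acts in mitosis, differed by 0.63 (SE 0.31) between those groups, and by 0.38 without Tln1 VPA 1, with 0.86 within the first set against 0.16 within the second. Proliferation markers, all 12 measured, ran the same way: 12 were higher in Tln1 VPA than in Tln1 vehicle (median 0.46, with 0.57 and 0.17 in the sets), and 10 were higher in Tln1 vehicle than in control (median 0.12, 0.03 without control 2 and 0.21 without control 1). Without Tln1 VPA 1 the median of Tln1 VPA against Tln1 vehicle was 0.26 for the proliferation markers, and without Tln1 vehicle 1 that of the cyclins and kinases was 0.35. Mki67 was at 5.37 and 5.35 in control, 6.14, 5.59 and 6.46 in Tln1 vehicle, and 6.95, 6.72 and 6.75 in Tln1 VPA arrays, with no overlap between any of the groups. Between Tln1 vehicle and control, 4.78% of all genes were apart and higher, and the other shares are those given for Ccna2. Top2a, the topoisomerase of dividing cells, was 1.05 (SE 0.25) higher in Tln1 VPA than in Tln1 vehicle, with 1.22 and 0.70 in the sets. On control and Tln1 vehicle arrays it lay between 3.60 and 4.34, below the median gene mean of 4.92, and there are no detection calls. Cdkn1a, with overlapping groups, also had a higher mean in Tln1 VPA than in Tln1 vehicle. How its difference relates to those of the E, A and B cyclins and the proliferation markers was not tested. Beside these genes, all 9 macrophage and myeloid markers had higher means in Tln1 VPA than in Tln1 vehicle (median 0.45, with 0.26 and 0.63 in the sets), and all 9 endothelial markers had lower ones (median -0.45, with -0.28 and -0.59), none past the test. Their part in these values was not tested, and which cells carried the transcripts is not given by these arrays.

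Of the pocket proteins and E2F factors, through which the inhibitors act on transcription, all 11 were measured, with 7, 8 and 8 higher in the 3 comparisons (medians 0.07, 0.10 and 0.08). Rbl1, the pocket protein p107, was 0.29 (SE 0.12) higher in Tln1 VPA than in Tln1 vehicle, with 0.25 and 0.35 in the sets. E2f8, a repressor of cell cycle genes, was 0.49 (SE 0.17) higher, with 0.65 and 0.15 in the sets, and 0.29 higher without Tln1 VPA 1. On control and Tln1 vehicle arrays E2f8 lay between 3.98 and 4.25, below the median gene mean of 4.92. Of the SCF-Skp2 ubiquitin ligase genes, which direct the breakdown of p27, 4 of 5 were measured. Of these, 3 were higher and 1 lower in Tln1 vehicle than in control (median 0.14, -0.09 without control 2), 3 and 1 in Tln1 VPA against Tln1 vehicle (median 0.05, -0.03 without Tln1 VPA 1) and 4 and 0 in Tln1 VPA against control (median 0.15, 0.06 without control 2). Skp2, the subunit that recognises p27, was at 5.56 and 5.56 in control, 5.24, 5.43 and 5.22 in Tln1 vehicle, and 5.73, 5.67 and 5.64 in Tln1 VPA arrays. None of its groups overlapped: Tln1 vehicle was lowest, by -0.26 (SE 0.12) against control, and Tln1 VPA was 0.38 (SE 0.11) above it (limma adjusted p = 1.00 for both). Skp2 was named for its small p, which favours genes whose groups lie apart. Over all genes, 3.59% were apart and lower in Tln1 vehicle than in control. The shares apart and higher in Tln1 VPA were 1.98% against Tln1 vehicle and 5.57% against control. Within the sets its differences were -0.22 and -0.34 against control, and 0.36 and 0.42 for Tln1 VPA against Tln1 vehicle. The other 3 measured genes overlapped between Tln1 vehicle and control, with higher means in Tln1 vehicle: Cks1b, a cofactor of Skp2, by 0.30 (SE 0.24), the scaffold gene Cul1 by 0.16 (SE 0.15) and the adaptor gene Skp1 by 0.11 (SE 0.26). Tln1 vehicle was thus the lowest group for Skp2, as it was for Cdkn1a and Cdkn2c within the sets. Tln1 VPA differed from control by 0.12 (SE 0.12) for Skp2. For Cdkn2c that difference was 0.08 between group means, and -0.06 and -0.04 in the sets.

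Since p53 is the best known inducer of Cdkn1a, other p53 target genes were set beside it. Of 18 listed, 15 were measured. In Tln1 vehicle against control 8 were higher and 7 lower (median 0.04, against 0.02 over all genes), and in Tln1 VPA against Tln1 vehicle 8 and 7 (median 0.00, as over all genes). In Tln1 VPA against control 10 were higher and 5 lower (median 0.10). The median of Tln1 vehicle against control was -0.08 and 0.05 in the sets, -0.07 without control 2 and 0.28 without control 1. That of Tln1 VPA against Tln1 vehicle was 0.08 without Tln1 VPA 3, and that of Tln1 VPA against control ran from -0.02 without control 2 to 0.33 without control 1. Mdm2, the ligase that p53 induces against itself, was at 7.26 and 7.30 in control, 7.26, 7.05 and 7.35 in Tln1 vehicle, and 7.43, 7.30 and 7.40 in Tln1 VPA arrays, a difference of -0.06 (SE 0.13) in the first and 0.16 (SE 0.12) in the second comparison. Plk2, a polo-like kinase, went the other way from Cdkn1a in Tln1 vehicle, with 5.81 and 5.86 in control, 6.56, 6.25 and 6.68 in Tln1 vehicle, and 6.52, 6.39 and 6.68 in Tln1 VPA arrays. Its difference from control was 0.66 (SE 0.16, limma adjusted p = 1.00) with vehicle and 0.69 (SE 0.16, adjusted p = 1.00) with valproic acid, with no overlap between control and Tln1 arrays. Of all genes, 4.78% were apart from control and higher with vehicle, and 5.57% with valproic acid.

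Markers of the other cells in the isolate were also compared as array means, and none of their genes passed the test. Of the lists given here, only 2 had a group apart from the others. These were the mesangial and smooth muscle markers, lowest in control, and the parietal epithelial markers, highest in Tln1 VPA. The mean of 7 mesangial and smooth muscle markers was 6.76 to 6.96 in control, 7.21 to 7.61 in Tln1 vehicle and 7.13 to 7.23 in Tln1 VPA arrays. That of 9 macrophage and myeloid markers was 5.09 to 5.15, 4.74 to 5.42 and 4.95 to 6.03, and that of 6 parietal epithelial markers 7.26 to 7.54, 7.41 to 7.51 and 7.57 to 7.86. For 9 endothelial markers it was 8.82 to 9.25, 8.89 to 9.85 and 8.81 to 9.07, and for 7 markers from the loop to the collecting duct 10.72 to 10.79, 10.27 to 11.15 and 10.53 to 10.85. The part of these markers in the values of the inhibitors was not tested.

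**Figure D5:**
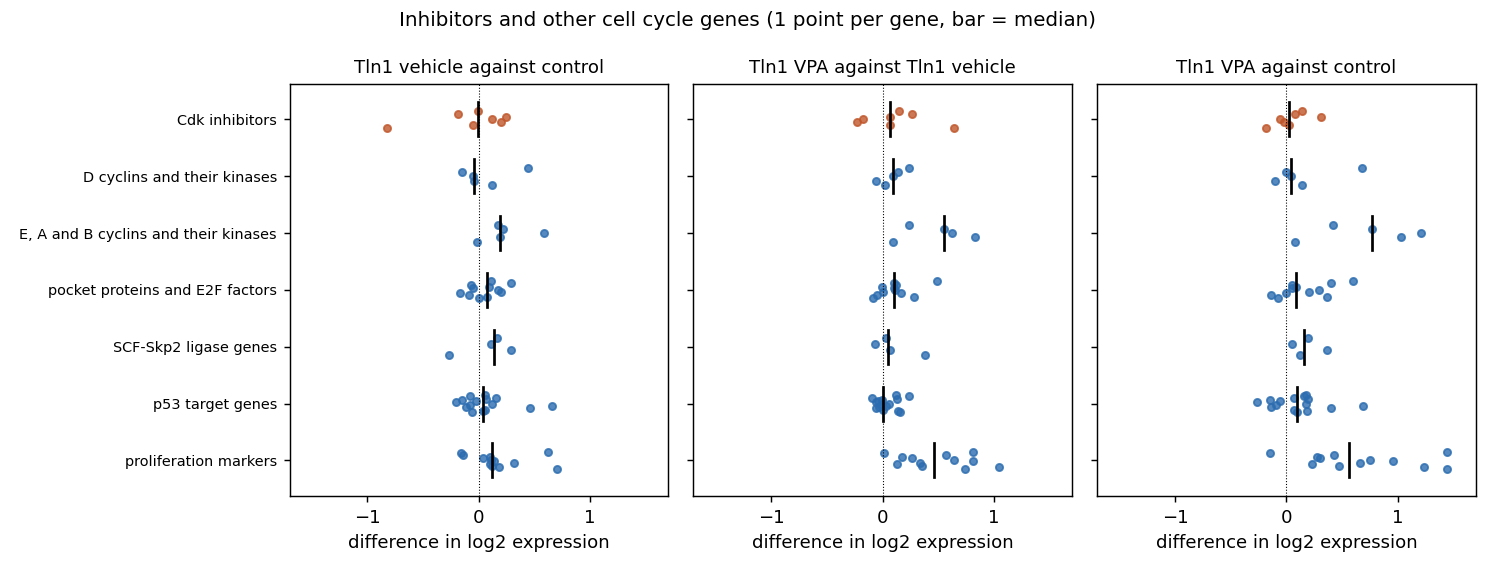
Differences in log2 expression (x axis) of the 7 inhibitors and the measured genes of 6 lists (y axis) in the 3 comparisons, 1 point per gene with a bar at the median. In Tln1 VPA against Tln1 vehicle the 12 proliferation markers all lie at or above 0 with a median of 0.46, while the median of the inhibitors is 0.07.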

How the data were processed

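Arrays of an Affymetrix type, 1 per sample, were probed with biotin-labelled cRNA from glomerular RNA, per the labels' protocols. The deposited values are on a log2 scale. Per the submitters' processing notes the authors used RMA and limma, without versions. Which arrays entered RMA together is not given in the sources used here. No further scaling was applied. Of 41345 probe sets, 23521 carried 1 symbol in the platform annotation, 1814 several and 16010 none, and a symbol with several probe sets kept the one with the highest mean.

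A single limma fit of all 8 arrays with group as its term gave the comparisons (lmFit and eBayes, limma 3.58.1 in R 4.3.3, two-sided, 5 residual degrees of freedom before moderation). P-values were adjusted by Benjamini-Hochberg over 22180 genes, with a threshold of 0.05, and the code was tested on simulated data. The number of arrays limits the precision. Array sets are the 2 clusters of arrays by correlation over all genes. The labels state no pairing. For each number shared by Tln1 vehicle and Tln1 VPA, the deviations of both arrays from their groups correlated over genes (r = 0.570, 0.609 and 0.787). Both arrays of each such number lay in the same array set, so these r cannot tell pairs from array sets. For control and Tln1 vehicle, with 2 common numbers, r was 0.609 for number 1, within the first set. It was -0.591 for number 2, whose arrays lay in different sets. The comparisons therefore used no pairing, except where the replicate number is given as a block.

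The inhibitors and the 14 lists (124 genes, 113 measured) were chosen with earlier results of these data known. Named were all inhibitors, Tln1, from each list at most the 2 genes with the smallest p per comparison, and the 3 genes most like each inhibitor. The counts within both sets and the fit of the first set alone were added after the data were seen. Alternatives are given in the closing section. Plots were made in Python 3.11.15 (matplotlib 3.10.9).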

Additional observations from a re-analysis of the deposited data

How the results depend on the processing

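No inhibitor passed the test under any alternative run: another choice of probe set, only genes above the median gene mean (which leaves out Cdkn2a), array weights, centring, fits of only the groups compared, quantile normalisation, eBayes with a trend and robust, the array set or replicate number as a block, the Y-linked mean as a covariate, the first set alone, and each array left out in turn. The number of genes called in limma was 0 throughout, except that the fit with the replicate number as a block called 4 genes in Tln1 vehicle against control and 1 in Tln1 VPA against control, and the Y-linked covariate called 21 in Tln1 VPA against control, among them Mki67 (1.59, adjusted p = 0.0473). The replicate block changed no other call. The causes of the changes given here were not tested.

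Tln1 vehicle against control turned sign as follows. With array weights it was -0.018 for Cdkn1c, 0.047 for Cdkn2c and 0.16 for Cdkn2d; with the replicate block it was -0.21, 0.052 and 0.14 for the same genes. The Y-linked covariate gave 0.038 for Cdkn1b, -0.16 for Tln1, -0.11 for Ccna2 and 0.033 for Mdm2. Tln1 was at -0.0048 with centring, -0.020 with the set as a block and -0.018 in the first set alone, where Cdkn2b was at -0.081. Leaving out 1 array gave -0.80 to 1.21 for Cdkn1c, -0.066 to 0.56 for Cdkn2b, -0.56 to 0.19 for Cdkn2c, -0.19 to 0.18 for Cdkn2d, -0.13 to 0.19 for Tln1, -0.060 to 0.45 for Ccna2, -0.13 to 0.024 for Mdm2 and -0.18 to 0.55 for Top2a.

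In Tln1 VPA against Tln1 vehicle, Plk2 was at -0.047 with array weights and -0.034 with the Y-linked covariate, and Cdkn1c minus the podocyte markers was at -0.044 within the first set. Leaving out 1 array gave -0.69 to 0.13 for Cdkn1c, -0.034 to 0.17 for Cdkn2b, -0.049 to 0.33 for Cdkn2d, -0.093 to 0.12 for Plk2 and -0.086 to 0.18 for Cdkn1c minus the podocyte markers.

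In Tln1 VPA against control, Cdkn1b was at -0.026 with centring, -0.016 with quantile normalisation, -0.0017 with array weights and -0.022 with the replicate block, and Tln1 at 0.0079 with array weights and 0.033 with the replicate block. Cdkn2c was at -1.46e-05 with quantile normalisation, -0.043 with the set as a block, -0.19 with the Y-linked covariate and -0.055 in the first set alone. Cdkn1c was at 0.22, 0.48 and 0.52 in the last 3 of these, and the Y-linked covariate gave 0.11 for Cdkn1a and 0.0042 for Cdk4. Leaving out 1 array gave -0.032 to 0.071 for Cdkn1b, -1.03 to 0.98 for Cdkn1c, -0.14 to 0.034 for Cdkn2a, -0.30 to 0.46 for Cdkn2c, -0.052 to 0.33 for Cdkn2d, -0.22 to 0.10 for Tln1 and -0.11 to 0.091 for Cdk4.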
